A study of Homo sapiens with 6 samples.

Results

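DYNLRB1 and 9 further genes of cytoplasmic dynein and dynactin, DYNLL1, DYNLL2, DYNLT1, DYNLT3, DYNC1H1, DYNC1I2, DYNC1LI1, DYNC1LI2 and DCTN1, were described in MDA-MB-231 cells, a human line of triple-negative breast cancer cells. The 10 genes were taken by name from the deposited count tables, which listed 41471 gene symbols in a knockdown experiment and 34157 in a drug experiment. They were chosen because DYNLRB1 was higher with both hairpins against CDK16, a cyclin-dependent kinase, so the knockdown values below are a description and carry no test. In the knockdown experiment, cells stably carrying a lentiviral scramble-shRNA were compared with cells carrying CDK16-sh1 or CDK16-sh2. In the drug experiment, cells were given DMSO, the vehicle, or rebastinib (Reb), a kinase inhibitor used in the study against CDK16, at 1 μM or 5 μM for 48 h. All 6 libraries were made from the same parental line in DMEM with serum, and each condition had 1 library, so no difference below has a replicate check. Each hairpin line was 1 stably transduced population, and both hairpins share the scramble library as both doses share the DMSO library.

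Cytoplasmic dynein is the motor that walks toward the minus ends of microtubules and carries vesicles, organelles and mitotic cargo. A pair of heavy chains holds the motor activity, intermediate and light intermediate chains sit on the tail, and small light chains of the roadblock, LC8 and Tctex families bind the intermediate chains as dimers. Dynactin, whose largest subunit is encoded by DCTN1, joins dynein to its cargo adaptors and is needed for long movement. In dividing cells the motor focuses spindle poles and removes checkpoint proteins from kinetochores.

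Total counts were 25838443 to 31955119 in the knockdown libraries and 37655548 to 50303269 in the drug libraries. CDK16 had 3223 counts with scramble, 1360 with CDK16-sh1 and 846 with CDK16-sh2, a log2 fold change of −1.52 and −1.82. It had 4996, 4609 and 2797 counts with DMSO, 1 μM and 5 μM Reb. After scaling for library size and composition, these were log2 fold changes of −0.14 at 1 μM and 0.27 at 5 μM. VIM, CD44 and AXL, known for their high levels in this mesenchymal-like line, had at least 34429, 15802 and 8803 counts in every library. ESR1, PGR and CDH1 had at most 53 counts in any library, EPCAM 125 to 408, and the markers of other cell types PTPRC, CD3E and ALB at most 35, while PECAM1 had 4 to 154. Transcripts of the mitochondrial genome took 11.3%, 10.4% and 16.2% of the counts with scramble, CDK16-sh1 and CDK16-sh2, and 7.19%, 8.30% and 16.4% with DMSO, 1 μM and 5 μM Reb. In bulk RNA, fewer cells of a type and less RNA per cell cannot be told apart.

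DYNLRB1 encodes a roadblock light chain. Its gene lies on chromosome 20 of GRCh38 from 34516409 to 34540958, on the plus strand, with 2460 bases of exon, and 4 transcripts are annotated in GENCODE 29. It has a paralog, DYNLRB2, on chromosome 16, whose protein has the same length. The coding sequences are shown because reads from such a close pair could have been split between them in counting. They are given 5′ to 3′ without the stop codon, as in the GENCODE 29 transcripts, and the bases at which the paralogs differ are in capitals.
DYNLRB1: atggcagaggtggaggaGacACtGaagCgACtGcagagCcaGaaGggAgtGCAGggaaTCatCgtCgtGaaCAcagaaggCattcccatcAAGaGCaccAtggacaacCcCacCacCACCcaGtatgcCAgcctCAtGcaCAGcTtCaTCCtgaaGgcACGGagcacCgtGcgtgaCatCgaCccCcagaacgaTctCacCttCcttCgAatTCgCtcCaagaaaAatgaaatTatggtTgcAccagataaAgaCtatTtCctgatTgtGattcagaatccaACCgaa
DYNLRB2: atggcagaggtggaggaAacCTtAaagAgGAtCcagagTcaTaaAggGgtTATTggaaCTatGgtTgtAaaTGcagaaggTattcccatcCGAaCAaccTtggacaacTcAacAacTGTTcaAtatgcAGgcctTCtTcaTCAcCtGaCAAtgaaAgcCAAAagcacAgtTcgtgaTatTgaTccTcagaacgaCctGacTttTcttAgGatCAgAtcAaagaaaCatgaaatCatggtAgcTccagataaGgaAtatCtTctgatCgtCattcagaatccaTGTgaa
Of the 288 bases, 85 differ (70.5% identical), and 74 of the 96 encoded residues are identical. The longest run shared by any annotated transcripts of the pair is 17 bases. DYNLRB2 had 3, 2 and 0 counts with scramble, CDK16-sh1 and CDK16-sh2 and 0 in the 3 drug libraries, so nearly all roadblock counts were assigned to DYNLRB1. No other deposited gene overlaps DYNLRB1.

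With both hairpins DYNLRB1 was more than 4-fold higher than with scramble. It had 1614 counts with scramble, 8634 with CDK16-sh1 and 6284 with CDK16-sh2. After TMM scaling, edgeR's correction for differences in library composition, its level per length was 24.1, 106 and 101 CPM per kilobase of exon. Both hairpin libraries lay far above the scramble library and close to each other. On the log2 scale CDK16-sh1 was above scramble by 2.14 (95% Clopper-Pearson interval 2.07 to 2.22) and CDK16-sh2 by 2.07 (1.99 to 2.15), or 4.41-fold and 4.19-fold. These intervals, like all those below, cover counting error only. Of the 15295 expressed genes, those averaging at least 1 CPM, a count scaled to the size of its library, over the experiment, 24 had a larger log2 fold change with CDK16-sh1 and 6 with CDK16-sh2. Removing the trend of fold change on gene length and mean level gave the lowest values of the alternatives tried, 1.84 and 1.78.

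Among the 10 members DYNLRB1 was thus at least 2-fold higher with each hairpin, and no other member was. Genes at least 2-fold higher made up 4.33% of all expressed genes with CDK16-sh1, 2.20% with CDK16-sh2 and 0.438% with both, and since the members were chosen on this comparison nothing is read from these shares. The per-length order of the members changed with it. DYNLRB1 was in place 5 of 10 with scramble, after DCTN1, DYNLL1, DYNC1H1 and DYNC1I2, and in place 1 with both hairpins. Neighbours in these orders whose counting intervals overlapped were DYNC1LI1 and DYNC1LI2 with CDK16-sh1, and DYNC1H1 and DYNC1I2, and DYNLT1 and DYNC1LI1, with CDK16-sh2. Its counts per 100 counts of DYNC1H1, a ratio that no scaling between libraries alters, were 9.18 with scramble, 46.6 with CDK16-sh1 and 40.1 with CDK16-sh2. Per length, its ratio to DYNC1I2, the intermediate chain to which the roadblock dimer binds, was 0.825 with scramble (interval 0.777 to 0.874), 6.00 with CDK16-sh1 (5.74 to 6.26) and 2.59 with CDK16-sh2 (2.50 to 2.70). The hairpin libraries thus held more DYNLRB1 than DYNC1I2 per length, and the scramble library less. The length is the deposited exon length of each gene, so such orders between genes depend on it.

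**Figure D1:**
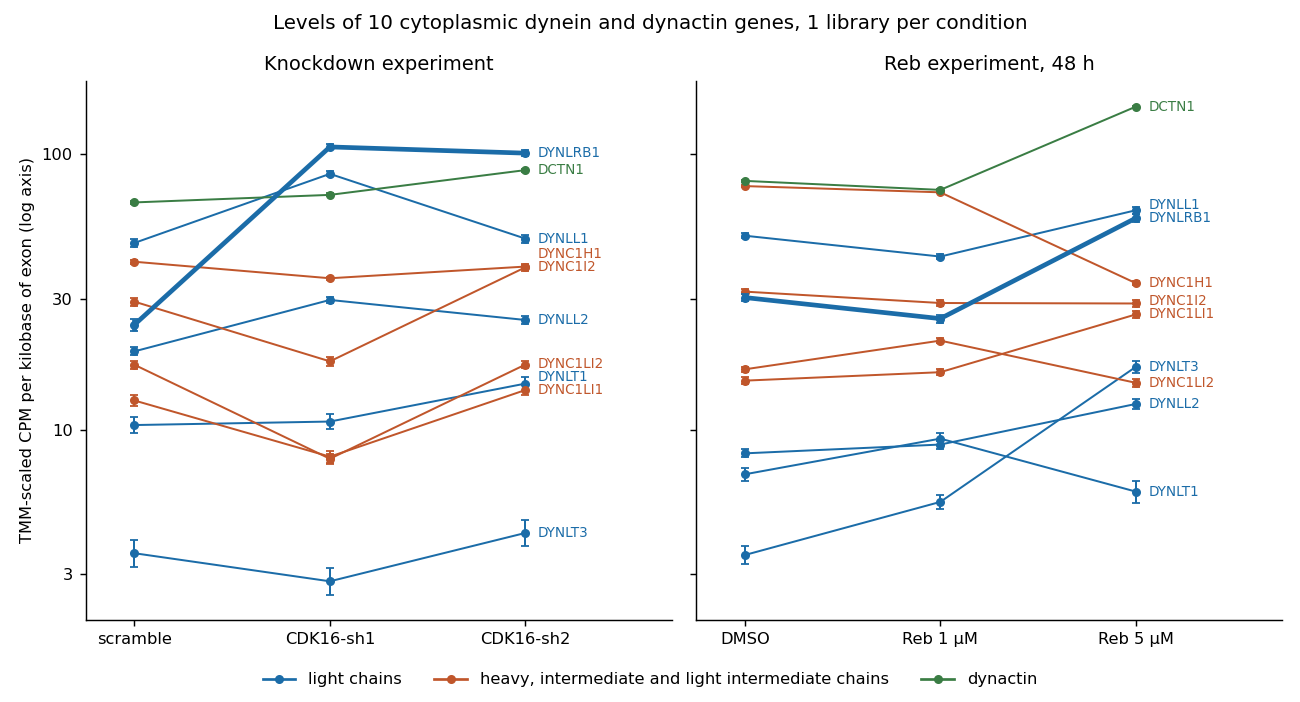
Per-length level of each member (TMM-scaled CPM per kilobase of exon, log axis) in the 3 knockdown libraries (left) and the 3 Reb libraries (right), coloured by role, with bars for the 95% counting interval and DYNLRB1 as the thick line. DYNLRB1 goes from 24.1 with scramble to 106 and 101 with the hairpins, and at 5 μM Reb DYNLT3 is higher (16.95 against 3.5 with DMSO) and DYNC1H1 lower (34.1 against 76.7).

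The genes on either side of DYNLRB1 did not share its change with both hairpins. Before it on chromosome 20, ITCH, a ubiquitin ligase gene whose end lies 5016 bases away, had 1031, 941 and 645 counts and log2 fold changes of −0.41 and −0.57. AL109923.1, which lies within ITCH, was at −0.28 and −0.65, and AHCY, which encodes the enzyme that splits S-adenosylhomocysteine, was at 0.08 and 0.37. After it, MAP1LC3A, an autophagy gene 5896 bases away, had only 49, 137 and 63 counts and was at 1.18 (interval 0.73 to 1.71) and 0.45 (−0.09 to 1.04). PIGU, a gene of GPI anchor synthesis, was at 0.46 and 0.23, and NCOA6, a nuclear receptor coactivator, at −0.17 and −0.16. Of these 6 nearest expressed genes 1, MAP1LC3A, was 2-fold from the control, with CDK16-sh1, and none was with CDK16-sh2.

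**Figure D2:**
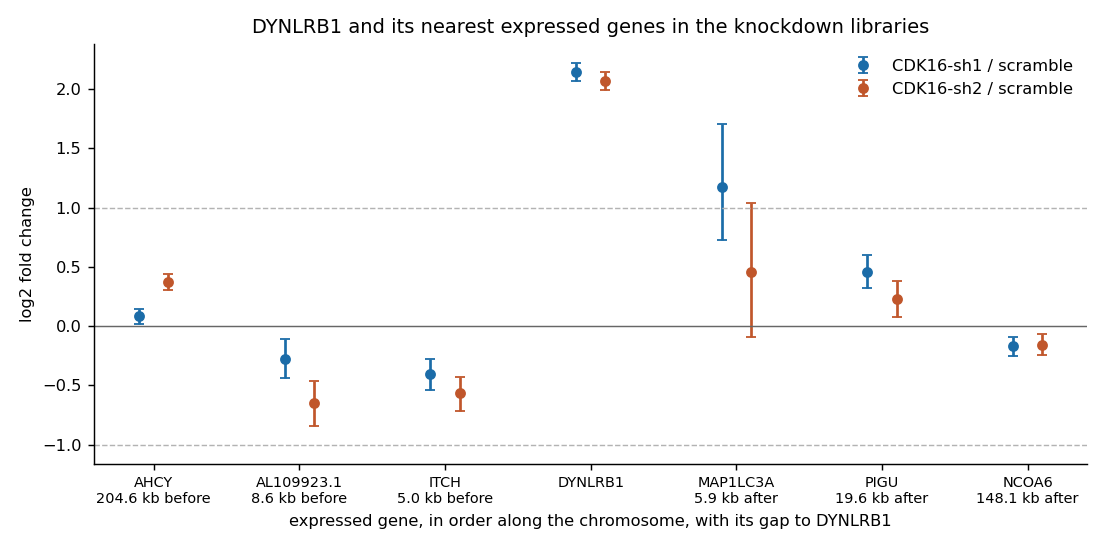
Log2 fold change of DYNLRB1 and of the 3 nearest expressed genes on each side, in chromosome order with the gap to DYNLRB1 under each name, for CDK16-sh1 (blue) and CDK16-sh2 (orange) against scramble. Bars are 95% counting intervals and dashed lines mark 2-fold, which DYNLRB1 exceeded with both hairpins and MAP1LC3A with CDK16-sh1.

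The sequence before the first exon of DYNLRB1 is shown because DYNLRB1 had the largest difference among the members with both hairpins. It is 237 bases from the RefSeq promoter table (GRCh38.p14), chr20:34516172-34516408 on the plus strand, and a searched motif found in it is in capitals.
DYNLRB1 promoter: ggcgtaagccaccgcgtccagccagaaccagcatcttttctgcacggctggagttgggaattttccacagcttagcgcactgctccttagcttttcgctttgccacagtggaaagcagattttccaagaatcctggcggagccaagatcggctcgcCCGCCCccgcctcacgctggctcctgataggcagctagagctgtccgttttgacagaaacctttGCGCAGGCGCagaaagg
Promoters of 300 bases were searched on both strands for 6 motifs. The GC box of the Sp1 family was searched as GGGCGG, and the palindrome of the factor NRF1 as a GCGC tetramer on each side of 2 free bases. The box bound by the factor NF-Y was searched as CCAAT and the cAMP response element as TGACGTCA. The E-box, which many helix-loop-helix factors bind, was searched as CACGTG, and the box of the TATA-binding protein as TATAAA. Before the exon, DYNLRB1 held 1 GC box, read on the other strand and starting 81 bases before the exon, and 1 NRF1 palindrome at 17 bases, and none of the other 4. Over its whole 300-base promoter, which runs past the start, it also held the NF-Y box. In the 35116 promoters of the table, the GC box was found in 45.0%, the NRF1 palindrome in 8.32%, the NF-Y box in 34.6%, the E-box in 7.26%, the TATA box in 11.5% and the cAMP response element in 1.85%. Promoters were listed for 9 of the 10 members, and all 9 of these held the GC box and 5 the NRF1 palindrome (DCTN1, DYNC1H1, DYNLL1, DYNLRB1 and DYNLT1). The NF-Y box was in 3 of the 9 (DYNC1I2, DYNLL1 and DYNLRB1), the cAMP response element and the E-box in 1 each (DCTN1), and the TATA box in 1 (DYNC1I2). Letters that match a motif are not a bound site, and no binding was measured.

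The LC8 light chains DYNLL1 and DYNLL2, dimers that bind dynein and many other partners, were higher with CDK16-sh1, and with CDK16-sh2 DYNLL2 was above scramble while DYNLL1 was at its level. Their coding sequences are printed because they are the closest paralogs among the members, with differing bases in capitals.
DYNLL1: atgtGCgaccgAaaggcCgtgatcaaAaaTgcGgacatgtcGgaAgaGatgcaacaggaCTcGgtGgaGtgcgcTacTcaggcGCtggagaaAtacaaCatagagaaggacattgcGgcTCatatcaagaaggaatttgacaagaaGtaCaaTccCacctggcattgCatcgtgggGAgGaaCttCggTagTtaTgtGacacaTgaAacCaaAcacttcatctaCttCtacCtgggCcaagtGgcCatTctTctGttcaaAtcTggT
DYNLL2: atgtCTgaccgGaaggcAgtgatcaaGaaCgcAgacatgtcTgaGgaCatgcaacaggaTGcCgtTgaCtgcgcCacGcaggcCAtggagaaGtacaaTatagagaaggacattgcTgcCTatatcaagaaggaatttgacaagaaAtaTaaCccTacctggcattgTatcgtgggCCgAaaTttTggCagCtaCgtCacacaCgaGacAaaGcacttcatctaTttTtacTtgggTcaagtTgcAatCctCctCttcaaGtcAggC
They differ at 54 of 267 bases (79.8% identical), share 83 of 89 residues, and have a longest common run of 25 bases. DYNLL1, on chromosome 12 from 120469850 to 120498493, had 3842 counts with scramble, 8288 with CDK16-sh1 and 3698 with CDK16-sh2. CDK16-sh1 was above scramble by 0.83 on the log2 scale (interval 0.78 to 0.89) and CDK16-sh2 by 0.05 (−0.01 to 0.12) with CDK16-sh2, the latter not distinguishable from 0 by counting and below 0 under scaling by library totals (−0.14). DYNLL2, on chromosome 17 from 58083415 to 58095536, had 3574, 6653 and 4314 counts and log2 fold changes of 0.62 and 0.38. Within a library, which no scaling affects, the per-length ratio of DYNLL1 to DYNLL2 was 2.47 with scramble (2.36 to 2.59), 2.87 with CDK16-sh1 (2.78 to 2.96) and 1.97 with CDK16-sh2 (1.89 to 2.06).

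The Tctex light chains, the third family, were within 2-fold of scramble with both hairpins. DYNLT1, on chromosome 6 from 158636474 to 158644739, had 837, 1044 and 1099 counts and log2 fold changes of 0.04 and 0.50, the first changing sign under some alternatives. DYNLT3, on chromosome X from 37836757 to 37847637, had 310, 297 and 341 counts, the fewest of any member in these libraries, and was at −0.34 and 0.24. Of the per-length sum of the 5 light chains, DYNLRB1 made up 22.9% with scramble, 45.4% with CDK16-sh1 and 51.9% with CDK16-sh2, and DYNLL1 45.4%, 36.2% and 25.4%. Per deposited exon length, DYNLRB1 was thus the highest light chain gene in both hairpin libraries and DYNLL1 in the scramble library.

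The intermediate and light intermediate chains were lower with CDK16-sh1 and between 0.00 and 0.41 on the log2 scale with CDK16-sh2, and the heavy chain was near its control with both. DYNC1H1, the heavy chain gene on chromosome 14 from 101964528 to 102050792, had 17574, 18545 and 15675 counts and log2 fold changes of −0.20 and −0.06, each crossing 0 under another setting (up to 0.03 and 0.14). DYNC1I2, the intermediate chain gene on chromosome 2 from 171687409 to 171748420, had 3736, 2748 and 4622 counts, at −0.72 (interval −0.79 to −0.65) and 0.41. DYNC1LI1, on chromosome 3 from 32525971 to 32570874, had 2137, 1619 and 2166 counts, at −0.68 and 0.13. DYNC1LI2, on chromosome 16 from 66720893 to 66751798, had 3888, 2148 and 3617 counts, at −1.13 (interval −1.21 to −1.06) and 0.00. These last 2 genes encode the light intermediate chains, which connect the motor to adaptors.

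DYNC1LI2 was the only member at least 2-fold lower with CDK16-sh1, where 6.86% of expressed genes were, and no member was with CDK16-sh2, where 7.62% were. With a correction for GC content and gene length its value was −0.84, that of DYNC1I2 −0.39 and that of DYNC1LI1 −0.28. Their transcripts had a GC content of 46.1%, 42.5% and 42.4%, against 53.0% for DYNLRB1, which was at 1.87 with CDK16-sh1 after the same correction. DCTN1, the p150Glued subunit gene on chromosome 2 from 74361154 to 74392087, had 19026, 24547 and 23144 counts and was at 0.09 and 0.39. The 4 core chains had a median log2 fold change of −0.70 with CDK16-sh1 and 0.06 with CDK16-sh2, beside 0.00 and 0.02 over all expressed genes. The 5 light chains had 0.62 and 0.38, but these medians include DYNLRB1, whose rise chose the members. The 9 members without DYNLRB1 had medians of −0.20 and 0.24. Compared with each other, CDK16-sh2 was at least 2-fold above CDK16-sh1 for DYNC1I2 and DYNC1LI2 (both 1.13 on the log2 scale), with 6.53% of expressed genes past that fold, and at least 2-fold below it for 0 members, with 8.68% of genes. DYNLRB1 differed by −0.07 between the hairpins, with an interval of −0.12 to −0.03.

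**Figure D3:**
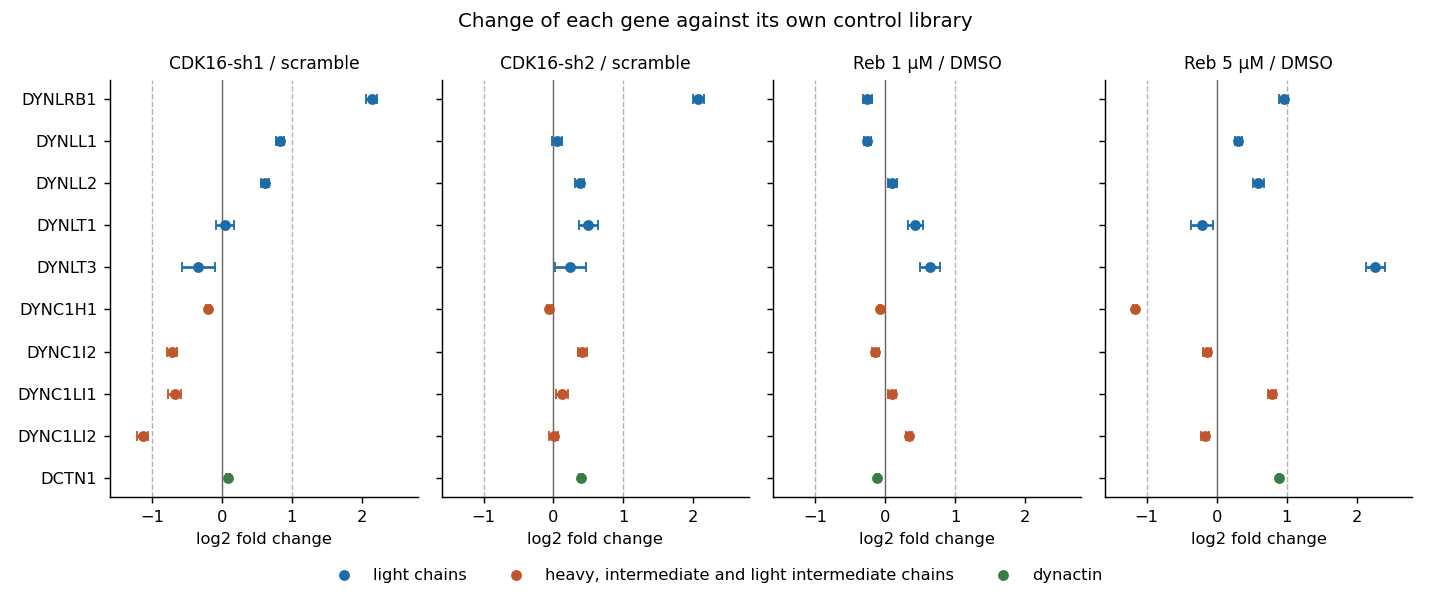
Log2 fold change of the 10 members against their own control library in the 4 comparisons, coloured by role, with 95% counting intervals as bars and 2-fold as dashed lines. DYNLRB1 is past 2-fold with both hairpins (2.14 and 2.07), DYNC1LI2 with CDK16-sh1 (−1.13), and DYNLT3 (2.26) and DYNC1H1 (−1.17) at 5 μM Reb.

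The Reb experiment was not used to choose the members and addresses whether the same genes differed when cells met the inhibitor. At 1 μM all 10 members stayed within 2-fold of DMSO, and at 5 μM DYNLT3 was 4.80-fold higher and DYNC1H1 2.25-fold lower. At 5 μM, 23.6% of all expressed genes were at least 2-fold higher and 27.2% at least 2-fold lower, so 1 of 10 members in each direction is below the share of all genes. At 1 μM these shares were 1.28% and 1.92%. The values at 5 μM depend on scaling. With library totals in place of TMM, the median of all genes shifted by −0.68, and with totals outside the mitochondrial genome by −0.53.

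DYNLRB1 had 4339 counts in the DMSO library, 3698 with 1 μM and 3907 with 5 μM Reb, or 30.2, 25.4 and 58.7 per length. The 1 μM library was slightly below DMSO and the 5 μM library above it. Against DMSO this was −0.25 on the log2 scale (interval −0.32 to −0.19) with 1 μM and 0.96 (0.89 to 1.02) with 5 μM, where 3851 of 15655 genes had a larger one and library totals gave 0.27. Per 100 counts of DYNC1H1 it had 6.13, 5.41 and 26.8 counts. DYNC1H1 was itself 2.25-fold lower at 5 μM, so the last ratio also holds the fall of DYNC1H1. Per length the ratio of DYNLRB1 to DYNC1I2 was 0.952, 0.878 and 2.04, and that of DYNLRB1 to DYNLL1 0.597, 0.595 and 0.936.

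DYNLT3 had 654 counts in the DMSO library, 1036 with 1 μM and 1461 with 5 μM Reb. Each dose was above DMSO and the higher dose was the furthest, at 0.64 (interval 0.50 to 0.78) and 2.26 (2.13 to 2.40) on the log2 scale. Over the alternatives the second value was 1.55 to 2.33. DYNLT1, of the same family, had 1188, 1627 and 477 counts and was at 0.43 and −0.21. The per-length ratio of DYNLT1 to DYNLT3 was 1.96 with DMSO (1.78 to 2.16), 1.70 at 1 μM (1.57 to 1.84) and 0.353 at 5 μM (0.317 to 0.391), so the order of the pair was turned at the higher dose.

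DYNC1H1 had 70814, 68325 and 14599 counts. The first 2 libraries were alike and the 5 μM library stood far below them, at −0.08 and −1.17 on the log2 scale (interval −1.20 to −1.14). Its value at 5 μM was −1.86 with library totals and −0.70 with the GC and length correction, above the 2-fold line. The LC8 genes DYNLL1 (8742, 7465 and 5016 counts) and DYNLL2 (3266, 3573 and 2289 counts) were at −0.25 and 0.11 at 1 μM and at 0.31 and 0.60 at 5 μM, and both of the latter values were below 0 with library totals.

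DYNC1I2 had 8701, 8041 and 3655 counts and was at −0.14 at each dose. DYNC1LI1 had 5402, 5892 and 4357 counts, at 0.10 and 0.80, and DYNC1LI2 8016, 10355 and 3322, at 0.35 and −0.16. The per-length ratio of the light intermediate chains, DYNC1LI1 to DYNC1LI2, was 0.910 with DMSO (0.879 to 0.942), 0.768 at 1 μM (0.744 to 0.793) and 1.77 at 5 μM (1.69 to 1.85). DCTN1 had 48785, 45988 and 42065 counts and was at −0.11 and 0.89, with 0.20 to 1.53 over the alternatives at 5 μM. It had the highest per-length level of the members in all 3 drug libraries, 80.1, 74.3 and 149. In those orders the intervals of DYNC1I2 and DYNLRB1 overlapped with DMSO and those of DYNLT1 and DYNLL2 at 1 μM.

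When the doses were pooled and set against DMSO, so that the difference between the doses counts as the spread, 0 of the 10 members were called by edgeR's quasi-likelihood test at an adjusted p of at most 0.05 and 2-fold, where 0.0767% of all 15655 genes were. Their adjusted p was 1.00 in every case, and the smallest unadjusted p was that of DYNLT3 (log2 fold change 1.67, unadjusted p = 0.177), so 0 members were under an unadjusted 0.05. DESeq2 on the same groups also called 0 members. With dose as a linear term in the fit, edgeR called 24.5% of all genes and 1 member, DYNLT3 (adjusted p = 0.00253), while DYNLRB1 had an adjusted p of 0.173. With 1 DMSO library, the pooled fits assume that it varies like the treated ones. The dose-linear fit has 1 library at each dose and takes its spread from their departure from a straight line. Its adjusted p therefore does not measure spread between cultures. The linear term was the log2 of dose in μM plus 1, not the dose itself.

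Other genes of the motor were read from lists of dynein and dynactin genes. DYNC1I1, the other intermediate chain, was low, with 123, 24 and 69 counts in the knockdown libraries (log2 fold changes −2.52 and −0.71) and 88, 56 and 21 in the drug libraries (−0.65 and −0.92). The 11 other dynactin genes all passed the filter, and none was 2-fold from scramble with either hairpin. Of all genes, 4.33% were at least 2-fold higher and 6.86% lower with CDK16-sh1, and 2.20% and 7.62% with CDK16-sh2. The 11 genes had medians of −0.09 and 0.05. Their extremes were CAPZA1 at −0.69 and ACTR1A at 0.46 with CDK16-sh1 and DCTN6 at −0.88 and DCTN2 at 0.66 with CDK16-sh2. The ones highest per length were ACTR1A, the actin-related protein of the dynactin filament (3651, 6080 and 4183 counts), and the capping proteins CAPZA1 (4799, 3605 and 3630) and CAPZB (3392, 5265 and 3518). At 5 μM Reb, 3 of the 11 were at least 2-fold higher, CAPZA2 at 3.05, DCTN4 at 2.50 and DCTN6 at 1.43, beside 23.6% of all genes, and ACTR1A was at −1.53, with a median of 0.80 against −0.07 for all genes. At 1 μM none was 2-fold from DMSO, beside 1.28% of all genes higher and 1.92% lower.

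Of 24 genes of dynein regulators and adaptors, 22 were expressed. BICD2, an adaptor of Golgi vesicles and nuclei, had 2574, 1847 and 539 counts with scramble, CDK16-sh1 and CDK16-sh2 and was at −0.75 and −2.15. HOOK1, an endosomal adaptor, had 55, 11 and 21 counts, at −2.37 and −1.21. It was the only one at least 2-fold lower with both hairpins, and the share of all genes that were is not given here. NUMA1, which anchors dynein at spindle poles, had 18475, 15343 and 19619 counts, at −0.54 and 0.19, and SPDL1, which recruits dynein to kinetochores, 4632, 3473 and 3178, at −0.69 and −0.44. The list's medians were −0.28 and −0.12, with 16 and 13 of 22 genes below scramble. With CDK16-sh1 1 was at least 2-fold lower and with CDK16-sh2 2 were, beside 6.86% and 7.62% of all genes. At least 2-fold higher were 0, beside 4.33% and 2.20% of all genes. At 5 μM Reb 3 of the 22 were at least 2-fold higher, BICD2 at 1.71, NDEL1 at 1.46 and SNX5 at 1.16, beside 23.6% of all genes. At least 2-fold lower were 7, beside 27.2% of all genes, namely KNTC1 at −2.57, NDE1 at −2.22, BICD1 at −1.66, SPDL1 at −1.64, ZWILCH at −1.52, RAB11FIP3 at −1.42 and NINL at −1.26. The pooled Reb test called 0 of these 34 expressed genes of the other motor lists, the smallest unadjusted p being 0.0960, and the dose-linear fit called 4 higher and 2 lower, beside its 24.5% of all genes in either direction.

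**Figure D4:**
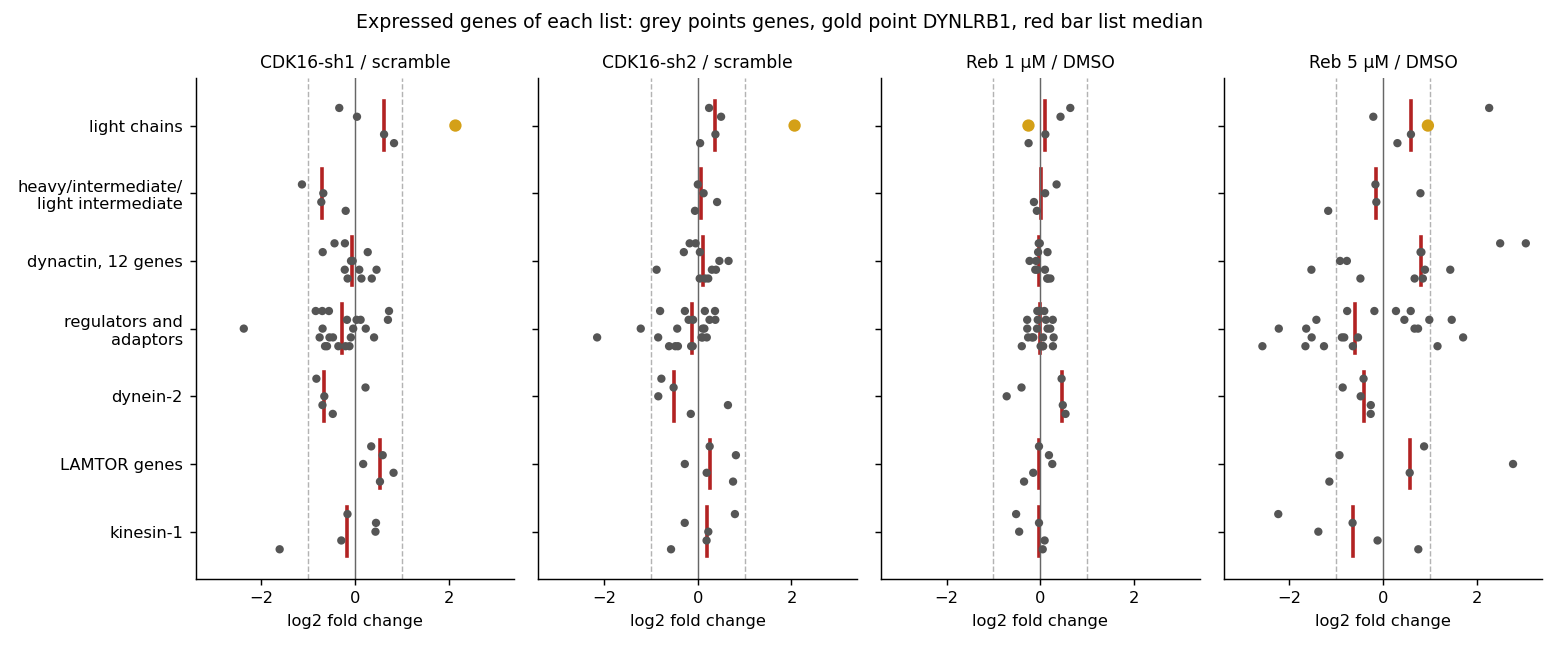
Log2 fold change of the expressed genes of 7 lists in the 4 comparisons against the own control library, with each gene as a point, DYNLRB1 in gold, the list median as a red bar and 2-fold as dashed lines. With both hairpins DYNLRB1 lies apart from the rest of the light chains, and at 5 μM Reb the 12 dynactin genes run from −1.53 to 3.05.

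Genes of other motors and of the roadblock fold were compared in the same way. Of all genes, 4.33% were at least 2-fold higher and 6.86% lower with CDK16-sh1, and 2.20% and 7.62% with CDK16-sh2. With shares this low, 0 genes past 2-fold in a list of 5 or 9 is not read as a result. The 5 dynein-2 genes, of the ciliary transport motor, had medians of −0.66 and −0.51 with the hairpins and 0 genes past 2-fold, with WDR34 (2504, 3542 and 1628 counts) the most abundant per length, at 0.22 and −0.51. The next were WDR60, at −0.82 and −0.77, and TCTEX1D2, at −0.66 and −0.84. Of 18 axonemal dynein genes, 9 were expressed, with medians of 0.22 and −0.08 and 0 past 2-fold. Those highest per length were DNAH11 (0.59 and −0.95), DNAH14 (0.22 and 0.49) and DNAL4 (−0.43 and 0.42). The 5 LAMTOR genes, which encode the Ragulator complex on lysosomes and include roadblock-fold proteins, had medians of 0.53 and 0.26 and 0 past 2-fold, with LAMTOR1 at 0.53 and 0.75, LAMTOR2 at 0.82 and 0.19 and LAMTOR4 at 0.59 and 0.82. In the kinesin-1 list, of the motor that walks the other way, KIF5B had 10500, 4173 and 6574 counts and was at −1.61 and −0.57, KLC1 was at −0.29 and 0.19, and KLC2 at 0.44 and 0.23. The list's medians were −0.16 and 0.19. At 5 μM Reb the medians were −0.42 for dynein-2, −0.97 for the axonemal genes, 0.57 for LAMTOR genes and −0.65 for kinesin-1.

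The genes whose 4 log2 fold changes were nearest to those of DYNLRB1, by Euclidean distance over the 10462 genes averaging 5 CPM or more in each experiment, were KDM6B (distance 0.723), BCL7A (0.933), TRIB1 (0.958), MYC (1.15) and MED19 (1.15). KDM6B was at 2.24 and 1.52 with the hairpins and −0.41 and 0.52 with Reb. BCL7A was at 1.40 and 1.72, then −0.63 and 0.72, and TRIB1 at 1.502 and 1.56, then −0.52 and 1.39. MYC was at 1.71 and 1.26, then −0.80 and 1.38, and MED19 at 1.91 and 1.65, then −0.05 and −0.07. None of them is a gene of the motor lists, and the hairpins and the doses each share a control, so these 4 values are not independent.

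Rows that overlap a member could have taken some of its reads, since whether counting used strand is not given in the sources used here. RP11-287D1.3 lies over DCTN1 on the same strand and had 2282, 4595 and 2477 counts in the knockdown libraries and 2535, 2368 and 2088 in the drug libraries. DCTN1-AS1 on the opposite strand had 262, 243 and 215, then 1541, 1306 and 1212. On the opposite strand of DYNC1H1, RP11-1017G21.4 had 1200, 2234 and 1319 counts with scramble, CDK16-sh1 and CDK16-sh2 and 3342, 3353 and 632 with DMSO, 1 μM and 5 μM Reb, and on that of DYNC1LI2, RP11-63M22.2 had 829, 706 and 971. On that of DYNLT3, RP5-972B16.2 had 63, 12 and 51, then 110, 125 and 301 counts. On that of DYNLL1, NRAV had 82, 203 and 67, then 414, 331 and 26 counts. DYNC1I2P1, a pseudogene of DYNC1I2, had 149, 106 and 216 counts. The values of these members are uncertain to that extent.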

How the data were processed

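Stranded mRNA libraries of MDA-MB-231 cells were sequenced on a HiSeq X 10, with 1 library per condition. The submitters' processing notes name Trimmomatic, featureCounts and Subread 1.5.1 and the build GRCh38, and the aligner and annotation are not given in the sources used here. The deposited tables hold whole-number read counts per gene symbol without normalization, with exon coordinates, and the authors' RPKM values, which are those counts divided by exon length and library total (largest relative difference 5.51e-07). The counts were used for all main values and the RPKM values as an alternative. Symbols turned into dates (28 and 27) could match no list.

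Counts were scaled by TMM in edgeR 4.0.16 (R 4.3.3), and fold changes were taken on log2 CPM after adding a prior count of 2, over the 15295 and 15655 genes averaging 1 CPM or more. All 10 members passed this filter in both tables. Levels per length are TMM-scaled CPM per kilobase of exon, scaled separately in the 2 experiments. The exon length is the deposited one for each gene. The lengths of the transcripts expressed were not measured, and the counting intervals do not cover this. The 95% intervals come from the Clopper-Pearson method on how a gene's counts divide between 2 libraries. They hold counting error alone, since each condition had 1 library. PCR copies were not marked by molecular identifiers, and the intervals do not allow for such copies. The knockdown comparison chose the members and was not tested. For Reb, both doses were tested as 1 group against DMSO with edgeR's quasi-likelihood test and Benjamini-Hochberg adjustment over all genes (adjusted p-value of at most 0.05 and 2-fold). On simulated counts for this comparison over 15655 genes, with 200 genes shifted by 3 on the log2 scale, it called 200 with 0 unchanged genes where libraries varied by a coefficient of 0.1, and 88 with 2 unchanged genes at 0.4. In that simulation both treated libraries had the same shift. In the data the doses also differed from each other, so these counts do not give the power of the test here. Alternatives were DESeq2 1.42.0, library totals, totals outside the mitochondrial genome, a prior count of 0.5 and RPKM with 0.1 added. Further ones were no filter, corrections for length and level or for GC content and length, a 1.5-fold threshold and dose as a linear term. The linear dose term was the log2 of dose in μM plus 1. GC content was known for 84.6% and 84.3% of expressed genes.

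The members and the lists were chosen with earlier results of these data known. The genes named are the 10 members and CDK16, of each other list the 3 highest per length on average and any gene at least 2-fold from control the same way in both treated libraries of an experiment, the 3 nearest expressed genes on each side of DYNLRB1, and the 5 genes with the most similar fold changes. Others were named after their values were seen. Member coordinates are those deposited, and 9 of 10 have the same start and end in GENCODE 29. Promoters are from RefSeq.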

Additional observations from a re-analysis of the deposited data

Results flagged for a closer look

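In 9 cases, the treated libraries of an experiment lay on opposite sides of their shared control for a member. With 1 library per condition this was not tested. The share of all expressed genes on opposite sides is not given here, so nothing is read from the count of 9. In 6 of the 9 cases both signs held under every alternative run and both counting intervals left out 0. The intervals were computed for the main setting only. Between the hairpins, DYNLT3 was at −0.34 with CDK16-sh1 (interval −0.57 to −0.10) and 0.24 with CDK16-sh2 (0.02 to 0.47). This was a difference of 0.579 on the log2 scale. With library totals the CDK16-sh2 value of DYNLT3 was 0.05, close to its control. DYNC1I2 was at −0.72 and 0.41, a difference of 1.13. Between 1 μM and 5 μM Reb, DYNLRB1 was at −0.25 and 0.96, a difference of 1.21, and DCTN1 at −0.11 and 0.89, a difference of 1.00. DYNLT1 was at 0.43 and −0.21, a difference of −0.637, and DYNC1LI2 at 0.35 and −0.16, a difference of −0.508. In the other 3 a sign depended on the setting or lay within counting error. These were DYNC1LI1 with the hairpins at −0.68 and 0.13, a difference of 0.803, DYNC1LI2 with the hairpins at −1.13 and 0.00, a difference of 1.13, and DYNLL1 with the doses at −0.25 and 0.31, a difference of 0.558.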

How the results depend on the processing

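No value of a member at least 2-fold from its control was reversed under any alternative run. Within 2-fold, signs changed for DYNC1H1 and DYNLT1 with CDK16-sh1, for DYNC1H1, DYNC1LI1, DYNC1LI2 and DYNLL1 with CDK16-sh2, for DYNC1LI1 at 1 μM Reb and for DYNLL1 and DYNLL2 at 5 μM. DYNLRB1 with CDK16-sh1 went from 2.14 to 1.84 with the length and level trend removed and 1.87 with GC and length removed. With CDK16-sh2 it went from 2.07 to 1.87 with library totals, 1.95 without mitochondrial counts, 1.87 by RPKM, 1.78 with length and level removed and 1.93 with GC and length removed. At 1 μM Reb it was −0.19 without mitochondrial counts. At 5 μM it was 1.02 with DESeq2 size factors, 0.27 with library totals, 0.42 without mitochondrial counts, 0.27 by RPKM, 0.75 without the filter, 0.59 with length and level removed and 1.02 with GC and length removed. The cause of these shifts was not tested.

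At a 1.5-fold threshold, 3 members were higher and 3 lower with CDK16-sh1, and 1 was higher with CDK16-sh2. With Reb, 1 was higher at 1 μM, and 5 were higher and 1 lower at 5 μM. Shares of all expressed genes past 1.5-fold are not given here, so nothing is read from these counts. With GC and length removed, 0 members were 2-fold lower with CDK16-sh1 and at 5 μM, and 3 were 2-fold higher at 5 μM, where DESeq2 size factors gave 2. The pooled Reb test called 11 genes higher and 1 lower. With dose as a linear term it called 2088 and 1744, and 1 member in place of 0. With library totals it called 0 and 0 (91 genes at an unadjusted p under 0.05), without the filter 3 and 0, and the DESeq2 test called 13 and 4. No paired analysis was possible because each group has 1 library. With 1 library per condition, no replicate could be left out and spread between cultures is not covered by any interval here.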
